A study of Caenorhabditis elegans with 4 samples.

Results

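The enzymes that activate fatty acids and break them down by beta-oxidation were measured on microarrays of *C. elegans* kept with or without remofuscin. Members were chosen by gene symbol, as every gene whose name starts with acs, acdh, acox, ech, cpt, hacd, maoc or acaa, together with *daf-22* and *kat-1*. The rule gave 64 genes, of which 63 had at least 1 probe among the 19813 genes named on the array. By general knowledge of these enzymes, 26 were assigned to mitochondrial steps, 11 to peroxisomal steps and 27 to neither. The last set holds most acyl-CoA synthetases and 5 of the ech genes.

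The worms were wild type (Bristol N2), grown on peptone-free agar with *E. coli* OP50 at 25 °C and moved as day 1 adults, at 3 days of age, to plates with 200 µM remofuscin or with 0 µM remofuscin (NC). RNA of whole worms was taken after 14 days, so a value mixes all tissues, and fewer cells of a tissue cannot be told apart from less RNA per cell. There were 2 independent experiments, each with 1 array of remofuscin-treated worms and 1 NC array, which gives n = 2 arrays per group. The 4 arrays lay on 1 slide and none had saturated spots. The scanner software called between 63.3% and 66.6% of spots well above background. Signals are given after each array was scaled to a common 75th percentile, in arbitrary units.

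Before it can be oxidized, a fatty acid is joined to coenzyme A by an acyl-CoA synthetase (acs). In mitochondria the carnitine palmitoyltransferases (cpt) move the acyl group onto and off carnitine for its passage across the membrane. Acyl-CoA dehydrogenases (acdh), enoyl-CoA hydratases (ech), hydroxyacyl-CoA dehydrogenases (hacd) and thiolases (*acaa-2*, *kat-1*) then shorten the acyl group. Peroxisomes use acyl-CoA oxidases (acox), the hydratase MAOC-1 and the thiolase DAF-22. In the worm this peroxisomal route is known for shortening the side chains of ascaroside pheromones as well as very long fatty acids.

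Most of the pathway was expressed in these old worms. Of the 26 mitochondrial genes, 24 were well above background on all 4 arrays, as were 9 of the 10 peroxisomal genes with a probe and 23 of the 27 placed in neither. These 56 genes were tested. Of the other genes, *acox-1.4* had no probe. The brightest probes of *acdh-1* (a short-chain acyl-CoA dehydrogenase), *acdh-2*, *acox-1.2*, *acs-15*, *acs-25* and the pseudogene *acs-23* were well above background on no array. *acs-18* was above background only on the NC array of experiment 1, where its signal was 20.9. Its signals were 4.4 and 4.91 in remofuscin-treated worms, against 20.9 and 6.84 in NC.

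The signals of the tested mitochondrial genes had a median of 818 and 851 in remofuscin-treated worms (experiments 1 and 2), against 776 and 746 in NC. Those of the peroxisomal genes had a median of 285 and 178 in remofuscin-treated worms, against 200 and 150 in NC. In remofuscin-treated worms 11 of 24 mitochondrial and 2 of 9 peroxisomal genes had a mean signal above 1000, and the same counts were found in NC. Probes differ in how brightly they report their RNA, so these medians describe the probes and do not rank the RNA levels of both routes. Ordered by the mean in remofuscin-treated worms, the mitochondrial signals ran from *cpt-5*, with 18.8 ± 1.1 in remofuscin-treated worms and 30.0 ± 0.359 in NC, to *acdh-3*, with means of 20259 in remofuscin-treated worms and 16874 in NC (± SD, n = 2 each). The peroxisomal signals ran from *acox-1.5*, with means of 101 in remofuscin-treated worms and 88.8 in NC, to *maoc-1*, with 2605 ± 649 in remofuscin-treated worms and 2312 ± 869 in NC.

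No member passed the limits of the study's methods, which ask for an unadjusted p under 0.05 together with a fold of 2 or more, or of 0.5 or less. By limma over all tested probes, 0 of the 56 genes were upregulated, against 2.23% of all 14737 tested genes, and 0 were downregulated, against 0.896%. After Benjamini-Hochberg adjustment, 0 members were higher (0.475% of all genes) and 0 were lower (0.0746%). At an unadjusted p under 0.05 alone, 1 member, *acox-1.3*, was higher (2.46% of all genes) and 0 were lower (1.1%). On the same values the methods' t-test put 1 member higher, again *acox-1.3*, against 1.78% of all genes, and 2 lower, *acs-24* and *cpt-5*, against 2.17%. The groups did not overlap for 14 members. In 7 of the 56 both treated arrays were above both NC arrays (12.5%, against 9.36% of all genes), and in 7 they were below them (12.5%, against 11%). The differences were small, and 52 of 56 stayed within 0.5 of 0 on the log2 scale (92.9%, against 86.3% of all genes). All 56 members were well above background on all 4 arrays, whereas the 14737 genes needed only 2 arrays and so include dimmer ones. In a limma fit restricted to probes well above background on all 4 arrays, 226 of 13539 genes were upregulated and 31 downregulated at the methods' limits. No member was called in that fit. With 2 arrays per group an exact permutation test of a single gene cannot give a p below 0.33, so every limma p given here rests on the spread pooled over probes. The adjusted p was 1.00 for each of the 56 genes.

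The peroxisomal genes held the 2 largest differences of the 56 tested members. *acox-1.3* (F08A8.3), an acyl-CoA oxidase, had signals of 138 and 133 in remofuscin-treated worms, against 67.0 and 79.5 in NC. Both treated arrays were higher than both NC arrays, and the NC arrays differed from each other by far less than the groups did. The fold change was 1.85 (95% interval 1.02 to 3.36, limma unadjusted p = 0.0430). A second probe of *acox-1.3* had signals of 81.7 and 155 in remofuscin-treated worms, against 66.8 and 110 in NC. On that probe the groups overlapped and the log2 difference was 0.39, below the 0.89 of the brighter probe. Its other probe was above background on no array. The unadjusted call ended with median scaling (unadjusted p = 0.0563), normexp background correction (unadjusted p = 0.0548, log2 difference 0.48), the deposited log2 values (unadjusted p = 0.0690) and the mean of all probes (unadjusted p = 0.193, log2 difference 0.52). It also ended with any array but NC replicate 2 left out.

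*ech-9* (F01G10.3), named as an enoyl-CoA hydratase, had signals of 256 and 157 in remofuscin-treated worms, against 123 and 101 in NC. The treated arrays were higher in both experiments, by 109% in experiment 1 and 55.3% in experiment 2, and the groups did not overlap. Its fold change of 1.80 had a 95% interval of 0.933 to 3.47 (limma unadjusted p = 0.0732). A second, dimmer probe had signals of 62.9 and 39.5 in remofuscin-treated worms, against 37.4 and 20.4 in NC. Both probes of *ech-9* gave a log2 difference of 0.85, in contrast to the probes of *acox-1.3*.

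With the experiment as a replicate block in the limma fit, *acox-1.3* and *ech-9* passed, with adjusted p of 0.0222 and 0.0354. That fit called 2 of 56 members higher, against 3.73% of all genes, and 0 lower, against 1.89%. It has 1 residual degree of freedom and gave every probe the same standard deviation (0.27 on the log2 scale), so its p values rest on that assumption.

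*ech-8* (F01G10.2), whose locus tag neighbours that of *ech-9*, had signals of 285 and 178 in remofuscin-treated worms, against 200 and 150 in NC. It was higher in both experiments, but the treated array of experiment 2 lay below the NC array of experiment 1, and the log2 difference was 0.38 ± 0.42 (SE, as for the log2 differences that follow). A hydratase and the thiolase of the peroxisomal cycle were also higher in both experiments. *daf-22*, the thiolase, had 2656 and 2526 in remofuscin-treated worms, against 2478 and 1900 in NC, without overlap (log2 difference 0.26 ± 0.38). *maoc-1*, the hydratase, had 3064 and 2146 in remofuscin-treated worms, against 2926 and 1697 in NC, and its groups overlapped (0.20 ± 0.43). Neither difference passed the test.

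**Figure D1:**
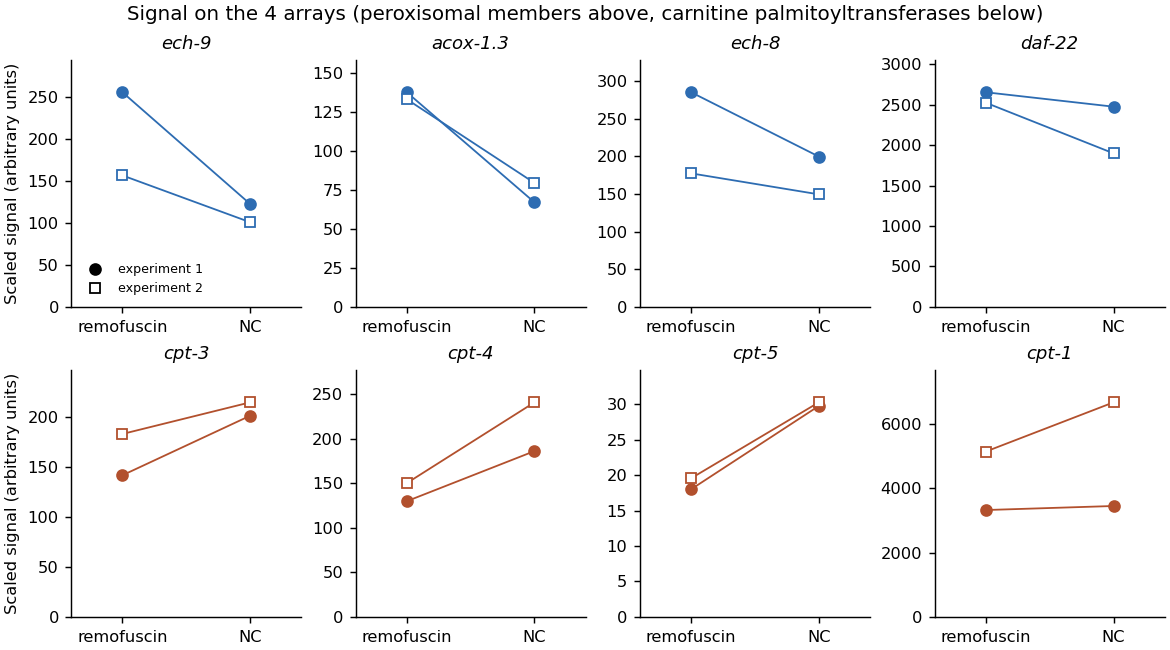
Scaled signal (arbitrary units, axes from 0) of 4 peroxisomal members (blue, upper row) and 4 carnitine palmitoyltransferases (brown, lower row) on the 4 arrays. Points are single arrays, remofuscin-treated worms left and NC right. Filled circles are experiment 1, open squares experiment 2, and lines join the arrays of 1 experiment. The lines of *ech-9* and *acox-1.3* run downwards from remofuscin to NC in both experiments (256 and 157 in remofuscin-treated worms against 123 and 101 in NC for *ech-9*), and those of *cpt-3*, *cpt-4* and *cpt-5* run upwards.

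The acyl-CoA oxidases differed in sign. *acox-1.1*, which acts in ascaroside synthesis, was lower in both experiments, with 557 and 660 in remofuscin-treated worms, against 623 and 846 in NC (log2 difference −0.26 ± 0.39). *acox-3* had 894 and 758 in remofuscin-treated worms, against 1009 and 909 in NC, so that both treated arrays were lower than both NC arrays (−0.22 ± 0.37). The 2 other oxidases tested, *acox-1.5* and *acox-1.6*, changed sign between the experiments. *acox-1.1* to *acox-1.4* lie next to each other on the genome (F08A8.1 to F08A8.4), and whether their probes share signal was not tested. Of the 9 peroxisomal genes, 7 were higher and 2 lower, with a median log2 difference of 0.20. That median was 0.038 without remofuscin replicate 1, with 5 of the 9 higher, and 0.064 without NC replicate 2. Over the 7 genes without *ech-9* and *acox-1.3*, the median was 0.17. The median over all tested genes was 0.00116.

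The mitochondrial genes had a median log2 difference of 0.00284, with 12 higher and 12 lower. Of the 18 tested genes of this set outside the carnitine palmitoyltransferases, 12 had a fitted difference above 0 and 6 below. All 6 cpt genes had a fitted difference below 0, from −0.68 to −0.04, with a median of −0.29, and 0 of the 6 passed the test. Of all tested genes, 50.1% had a fitted difference above 0, with 45.4% above 0 in experiment 1 and 52.6% in experiment 2. All 6 cpt genes were below 0 in experiment 2 and 4 of 6 in experiment 1, where *cpt-2* and *cpt-6* were above 0. With normexp background correction 5 of the 6 were below 0, and without NC replicate 2, which leaves 1 NC array, 3 of the 6 were. Without remofuscin replicate 1, 4 of the 6 were. With single arrays left out the median ranged from −0.098 without remofuscin replicate 1 to −0.56 without NC replicate 1, and was −0.11 without NC replicate 2.

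*cpt-5* (F09F3.9) had signals of 18.0 and 19.6 in remofuscin-treated worms, against 29.8 and 30.3 in NC. The arrays of each group lay close together and apart from the other group, but the signals were near the dimmest that counted as well above background (between 11.7 and 17.3 on the 4 arrays). Its fold change was 0.625 (95% interval 0.348 to 1.12, limma unadjusted p = 0.103). The log2 difference was −0.68, against −0.22 with normexp background correction, and the methods' t-test gave an unadjusted p = 0.00797. *cpt-4* (K11D12.4) had 130 and 150 in remofuscin-treated worms, against 186 and 241 in NC, a fold change of 0.660 (0.359 to 1.21). *cpt-3* (Y48G9A.10) had 142 and 183 in remofuscin-treated worms, against 201 and 214 in NC, a fold change of 0.775 (0.424 to 1.42). For these 3 of the 6 cpt genes (50%, against 11% of all tested genes) both treated arrays were lower than both NC arrays. The 3 were described singly because of their large differences of the same sign in both experiments, and the share was not tested. With the experiment as a replicate block, limma gave *cpt-5* an unadjusted p of 0.0119 (adjusted p = 0.162). In that fit *cpt-4* had an unadjusted p of 0.0258 (adjusted p = 0.280).

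*cpt-1*, which loads acyl groups onto carnitine, varied more with the experiment than with treatment. It had 3324 and 5143 in remofuscin-treated worms, against 3450 and 6673 in NC, and its log2 difference was −0.21 ± 0.46. Its 3 probes gave differences between −0.42 and −0.21. *acs-2*, the mitochondrial acyl-CoA synthetase that is induced by fasting, had 279 and 219 in remofuscin-treated worms, against 294 and 167 in NC, lower in experiment 1 and higher in experiment 2 (0.16 ± 0.43). The 5 other probes of *acs-2* were above background on no array.

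Of the 11 tested acyl-CoA dehydrogenases, 7 were higher and 4 lower, with a median of 0.01. *acdh-12*, a very long-chain dehydrogenase, had 9413 and 9111 in remofuscin-treated worms, against 8338 and 9180 in NC, a log2 difference of 0.08 ± 0.37. *acdh-9* was higher in both experiments, with 734 and 854 in remofuscin-treated worms and 672 and 623 in NC (0.29 ± 0.37). *acdh-1* stayed at background, with 7.56 and 6.79 in remofuscin-treated worms, against 2.84 and 4.22 in NC, and no fold change is given for it.

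The later mitochondrial steps differed between the groups by less than 0.4 on the log2 scale. *ech-6*, the short-chain enoyl-CoA hydratase, was higher in both experiments, with 5965 and 5037 in remofuscin-treated worms, against 5315 and 3668 in NC (0.31 ± 0.40). Its 3 probes gave differences between 0.21 and 0.36. *ech-1.2*, a subunit of the trifunctional enzyme, had 285 and 340 in remofuscin-treated worms, against 261 and 273 in NC (0.22 ± 0.37), but its 4 probes ran from −0.23 to 0.22. *hacd-1* (0.07 ± 0.37), *kat-1* (0.04 ± 0.37) and *acaa-2* (−0.01 ± 0.37) had differences close to 0 in this fit. The 95% interval of *kat-1* in this fit ran from −0.82 to 0.89, so with 2 arrays per group a change of either sign within these limits remained possible.

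**Figure D2:**
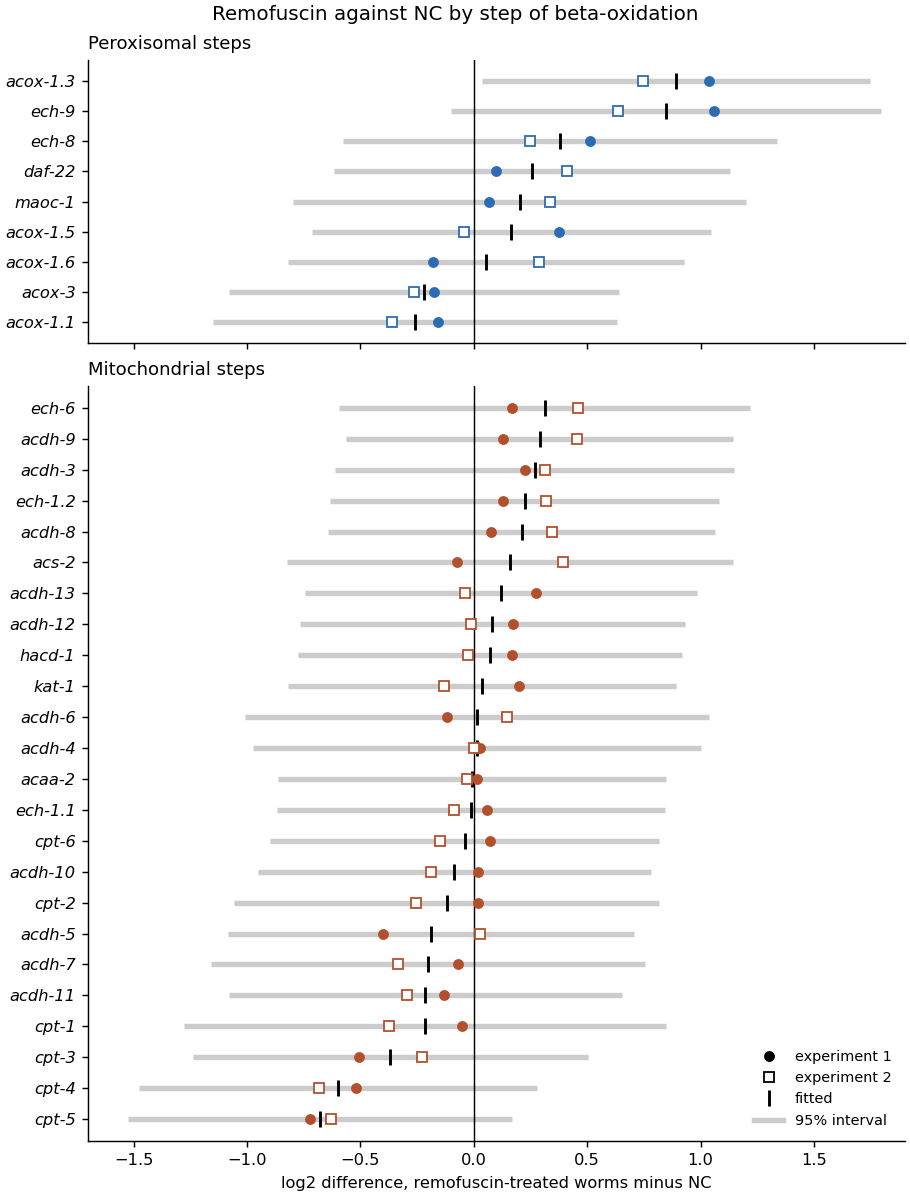
Log2 difference of remofuscin-treated worms minus NC for the 9 peroxisomal (upper panel) and 24 mitochondrial genes (lower panel) that were tested. Filled circles are experiment 1, open squares experiment 2, black ticks the fitted difference and grey bars its 95% interval from limma. The interval of *acox-1.3* (0.04 to 1.75) is the only one drawn that leaves out 0, and the 3 lowest genes are *cpt-3*, *cpt-4* and *cpt-5*.

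Among genes assigned to neither compartment, most acyl-CoA synthetases had fitted differences below 0 and most ech genes above 0, with 0 of 23 past the test. Over all 19 tested acs genes, 13 were lower and 6 higher, with a median log2 difference of −0.10. Without NC replicate 2, 7 of the 19 were lower. *acs-10* had the lowest value of the family, with signals of 92.1 and 130 in remofuscin-treated worms, against 130 and 161 in NC. The treated arrays were lower in both experiments, and the groups were almost in contact (−0.41 ± 0.40). *acs-24* had 50.2 and 48.5 in remofuscin-treated worms, against 61.2 and 60.5 in NC (−0.30 ± 0.37), and *acs-6* had 53.0 and 41.2 in remofuscin-treated worms, against 59.3 and 56.4 in NC (−0.31 ± 0.38). Both were lower on each treated array than on either NC array, and both were dim.

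*acs-1*, which is needed to make branched-chain fatty acids for growth, had the largest disagreement between the experiments. Its signals were 343 and 500 in remofuscin-treated worms, against 279 and 746 in NC, a log2 difference of 0.30 in experiment 1 and −0.58 in experiment 2. *acs-20*, a fatty acid transport protein homolog, had 169 and 172 in remofuscin-treated worms, against 153 and 240 in NC, with the same change of sign (0.14 and −0.48). In both genes the NC array of experiment 2 was the highest of the 4.

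The ech family had the highest share of genes above 0 among the 5 larger families. Of 10 tested ech genes, 10 were higher in experiment 1 and 7 in experiment 2, so that 7 (70.0%) were higher in both, against 29% of all tested genes, and 0 were lower in both. The median log2 difference was 0.27, and 0 of the 10 passed the test in the fit without a block. With the experiment as a replicate block, *ech-9* passed by adjusted p (limma, 0.0354) and no other ech gene did. *ech-7* had 1642 and 1382 in remofuscin-treated worms, against 1466 and 863 in NC (0.42 ± 0.42). Most of its difference came from the NC array of experiment 2. *ech-2* had 2404 and 1650 in remofuscin-treated worms, against 2008 and 1303 in NC, higher by 19.7% in experiment 1 and 26.6% in experiment 2 (0.30 ± 0.42). The ech genes span both compartments, since *ech-8* and *ech-9* were placed in peroxisomes, *ech-6*, *ech-1.1* and *ech-1.2* in mitochondria and the other 5 in neither. No file used here gives the compartment of an enzyme.

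**Figure D3:**
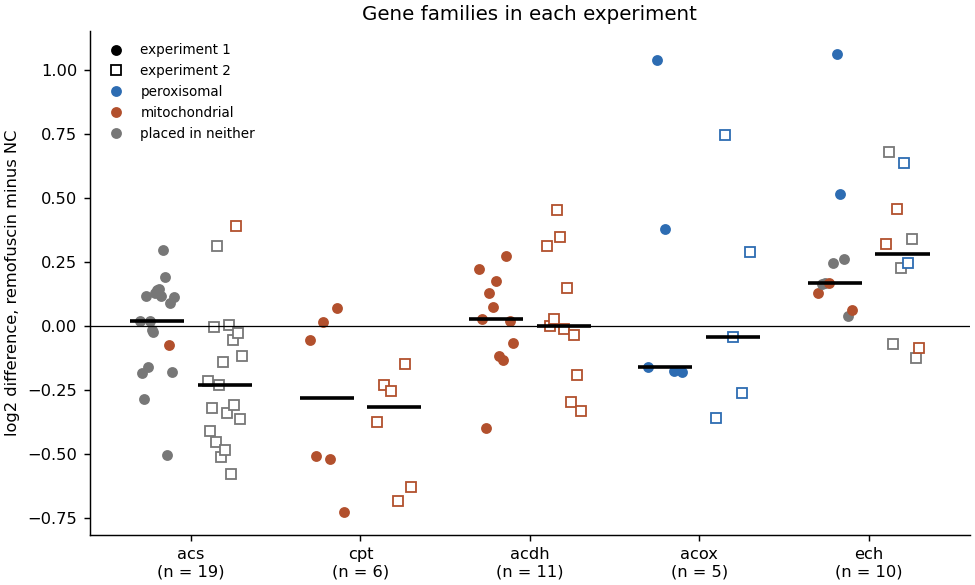
Log2 difference of remofuscin-treated worms minus NC in experiment 1 (filled circles, left of each pair) and experiment 2 (open squares, right) for the tested genes of 5 families, with n below each. Blue marks peroxisomal, brown mitochondrial and grey other members, and black lines are medians. The cpt medians are −0.28 and −0.31, the ech medians 0.17 and 0.28, and the acs medians 0.02 and −0.23.

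Within each experiment the mitochondrial and peroxisomal genes could be compared on 1 array per group, which allows no test. The median log2 difference of the peroxisomal genes was 0.10 in experiment 1 and 0.29 in experiment 2, and that of the mitochondrial genes 0.02 and −0.03. In experiment 1, 6 of 9 peroxisomal and 15 of 24 mitochondrial genes were higher in remofuscin-treated worms. In experiment 2, 6 of 9 and 8 of 24 were. Over all 14737 genes the medians were −0.03 and 0.03, and 45.4% of genes were higher in experiment 1 and 52.6% in experiment 2, against 62.5% and 33.3% of the mitochondrial genes. Of the 9 peroxisomal genes, 5 were higher in both experiments and 2 lower in both. Of the 24 mitochondrial genes, 5 were higher in both, 6 lower in both and 13 changed sign.

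Over all 56 members, 15 were higher in both experiments (26.8%, against 29% of all genes) and 15 lower in both (26.8%, against 31.1%). The other 26 changed sign. Both shares were close to the background.

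**Figure D4:**
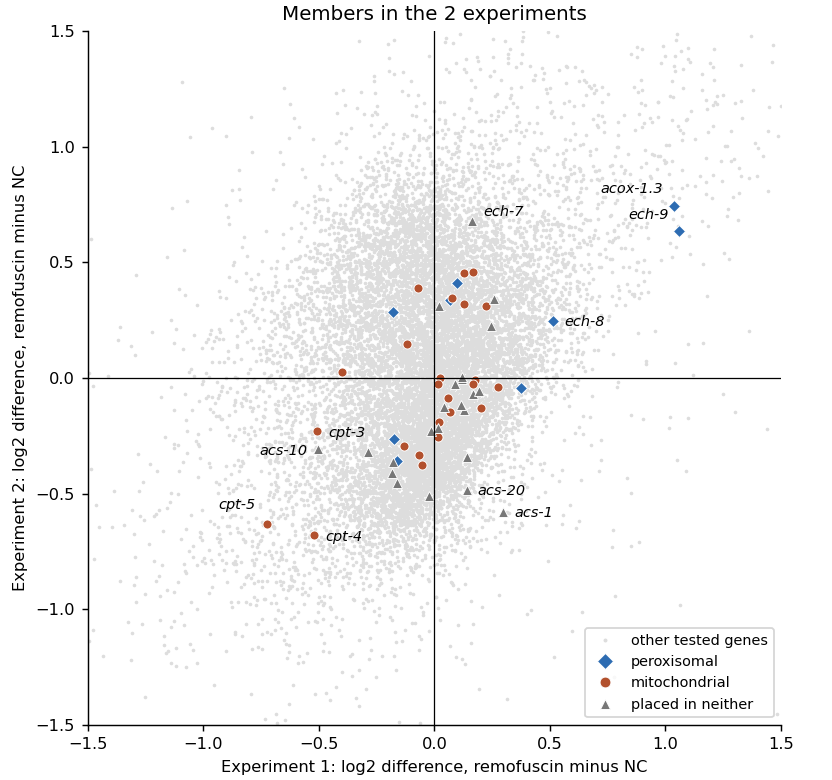
Log2 difference of remofuscin-treated worms minus NC in experiment 1 (horizontal axis) and experiment 2 (vertical axis). Each point is a gene read from its brightest probe. Blue diamonds are peroxisomal, brown circles mitochondrial and grey triangles other members. Pale dots are the other tested genes, of which 446 lie beyond the axis limits of 1.5. *ech-9* and *acox-1.3* stand alone among members at the upper right, and *cpt-4* and *cpt-5* at the lower left.

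The experiments themselves differed. In remofuscin-treated worms the members' signals differed between the experiments by a median of 0.24 on the log2 scale, without regard to sign, and in NC by 0.31. Over all tested genes these medians were 0.37 in remofuscin-treated worms and 0.63 in NC. The median size of the fitted treatment difference, which averages both experiments, was 0.18 over the members and 0.22 over all tested genes. The synthetases *acs-4*, *acs-13* and *acs-19*, picked here after their values were seen, are examples. *acs-4* had 3276 and 5556 in remofuscin-treated worms, against 3330 and 7917 in NC. *acs-13* had 4035 and 7071 in remofuscin-treated worms, against 3986 and 8212 in NC, and *acs-19* had 13461 and 17243 in remofuscin-treated worms, against 13604 and 20216 in NC. In each of them the arrays of experiment 1 were alike, and in experiment 2 both arrays were brighter and the NC array the brightest. Other members were dimmer in experiment 2, among them *ech-3*, with log2 differences of experiment 2 minus experiment 1 of −0.98 in remofuscin-treated worms and −0.82 in NC.

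Tissue markers also differed between the arrays. The summed signal of 6 oocyte markers, all above background on all arrays, was 97942 and 130649 in remofuscin-treated worms, against 100278 and 153809 in NC. Each of the 6 was brighter in experiment 2, with the NC array of experiment 2 the brightest. The sum of 7 germline markers was 52756 and 66424 in remofuscin-treated worms, against 51890 and 72236 in NC, and most of it came from *glh-1*, with 27095 and 38746 in remofuscin-treated worms, against 26442 and 41683 in NC. The germline marker *him-3* ran the other way, with 12227 and 8495 in remofuscin-treated worms, against 11472 and 7657 in NC. The medians of the log2 differences were −0.13 over the oocyte list and −0.10 over the germline list.

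Lists of other tissues differed from one another. The sum of 7 intestinal markers was 6813 and 8684 in remofuscin-treated worms, against 6457 and 9841 in NC. Of these, 6 had a fitted difference above 0 and 1, the brightest (*act-5*), below 0. Their median log2 difference was 0.13. It was 0.27 over 5 body wall muscle markers, −0.20 over 3 tested pharynx markers and 0.05 over 5 neuron markers. The sum of 4 sperm markers, 3 of them above background on all arrays, was 361 and 465 in remofuscin-treated worms, against 508 and 725 in NC, with a median log2 difference of −0.70. *gsp-3*, a sperm phosphatase, had 235 and 308 in remofuscin-treated worms, against 355 and 507 in NC, and *gsp-4* was also lower in both experiments. The sperm marker *spe-9* did not follow, with 52.3 and 56.0 in remofuscin-treated worms, against 53.3 and 27.2 in NC (log2 difference 0.51). *spe-11*, above background on 2 arrays, was higher in experiment 1 and lower in experiment 2. Of 6 hypodermal markers, the cuticle collagen gene *rol-6* had 256 and 231 in remofuscin-treated worms, against 23.5 and 13.7 in NC, a fold change of 13.5 (limma adjusted p = 0.00952). *dpy-7*, also a cuticle collagen gene, had 118 and 111 in remofuscin-treated worms, against 37.7 and 23.6 in NC. The median of the hypodermal list was 0.11, and its sum was 4442 and 5383 in remofuscin-treated worms, against 4015 and 5058 in NC. The part of tissue makeup in the values of the members was not tested.

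Other genes of the pathway were read from a list of transporters, peroxisome assembly factors, propionate enzymes, acyl-CoA binding proteins and regulators. Of its 38 genes, 35 were tested, 18 were higher and 17 lower, 0 passed the test in either direction, and the median log2 difference was 0.00208. *dhs-28*, the peroxisomal dehydrogenase between the MAOC-1 and DAF-22 steps, had 1030 and 807 in remofuscin-treated worms, against 950 and 726 in NC (0.13). *nhr-49*, the nuclear receptor known to control *acs-2* and other genes of fat use, had 3450 and 4828 in remofuscin-treated worms, against 3396 and 5504 in NC (−0.08).

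A gene can be represented by several probes, and 16 members had more than 1 tested probe. The log2 differences of the probes of a gene spanned less than 0.5 for 13 of the 16, the widest span was 0.56, and in 5 genes the probes differed in sign. Of the 91 member probes tested, 1 had an unadjusted p under 0.05.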

How the data were processed

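Each of the 4 one-colour Agilent arrays came as scanner output that the authors deposited, with the intensity of every spot corrected for background by Feature Extraction and not scaled between arrays. The log2 values that they deposited beside it lay within 0.01 of the log2 intensity for 99.88% to 99.96% of probes per array, and so are unscaled too. Controls were dropped, as were outlier spots (12 and 38 in the remofuscin group, 8 and 12 in NC). After averaging the spots of a probe, the log2 intensity was centred on the 75th percentile of its array. A probe was tested if at least 2 arrays showed it well above background (29060 of 43603). The test was limma (3.58.1, R 4.3.3), two-sided, for remofuscin minus NC, adjusted by Benjamini-Hochberg over the tested probes, with a prior of 6.21 degrees of freedom and 0.42 as its standard deviation. The number of arrays, 2 per group, limits every value. Python 3.11.15, pandas 2.3.3, numpy 2.4.6 and matplotlib 3.10.9 served for tables and plots. The fit was also run on simulated independent arrays, with changes larger than that of any member. These held no effect of the experiment, so that run does not bear on the paired arrays or on small differences.

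Gene names came from a table of the WBcel235 assembly, which named 78.7% of probes, and its coordinates were not used. The probe with the highest mean signal stands for a gene. Genes described singly were, in each compartment, those with the largest differences of the same sign in both experiments, those that differ most between experiments, *ech-9*, *acox-3* and 1 or more genes per step. The members and lists were chosen with earlier results of these data known. By the labels, each experiment holds an array of either group, which pairs the arrays. Over 29060 probes, the paired arrays deviated from their group means together (Pearson's r = 0.736, Spearman's rho = 0.763). Alternatives were median scaling, quantile normalization, normexp (offset 50, from median spot intensities), the deposited log2 values, the methods' t-test, no filter or a filter on all 4 arrays, averaged probes, a replicate block for the experiment, single arrays left out, and a narrower gene list per compartment.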

Additional observations from a re-analysis of the deposited data

How the results depend on the processing

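With 2 arrays per group, and several genes near background, only large differences could pass. Without a filter on dim probes 1 member was called higher (*acdh-1*) and 1 lower (*acs-18*), on probes that were above background on at most 1 array. With single arrays left out, where the lone array of a group is assumed to vary like the other group, the count of members called higher ranged from 0 to 1, the 1 being *acox-1.3* without NC replicate 2 (log2 difference 1.01), and the count called lower stayed at 0. The median of the mitochondrial genes then ranged from −0.015 to 0.094. That of the peroxisomal genes ranged from 0.038 without remofuscin replicate 1 to 0.45 without NC replicate 1, and was 0.064 without NC replicate 2 and 0.38 without remofuscin replicate 2. In the fits on all 4 arrays the peroxisomal median lay between 0.17 and 0.25, while the mitochondrial median fell below 0 with median scaling (−0.018), quantile normalization (−0.031), normexp (−0.031) and the mean of all probes (−0.00018). The replicate block left both medians and the counts at the fold limits as they were (0.0028, 0.20, 0 and 0), and by adjusted p it called *acox-1.3* and *ech-9* and no other member.

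Signs turned for genes with small differences. On all 4 arrays, *acaa-2* was 0.010 with the deposited log2 values, *acdh-12* −0.035 with quantile normalization and −0.047 with normexp, and *kat-1* −0.038 with normexp. With single arrays left out, *acs-1* ranged from −0.85 to 0.57, *acs-2* from −0.25 to 0.57, *acs-20* from −0.50 to 0.15, *cpt-1* from −0.69 to 0.26, *ech-2* from −0.012 to 0.61 and *maoc-1* from −0.19 to 0.59, in each case with the side opposite to the value on all 4 arrays reached without NC replicate 2. *acaa-2* ranged from −0.10 to 0.091 and *kat-1* from −0.087 to 0.16. When all its probes were averaged, *acox-1.3* had a log2 difference of 0.52, against 0.89 for the brightest, since the average takes in its dimmer probes. Without remofuscin replicate 1, *ech-9* had 0.49 and *ech-8* 0.038. The causes of the other changes were not tested.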
